A study of Rattus norvegicus with 13 samples.

Results

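The 8 genes of glucose handling in rat liver followed here were the glycolytic isozyme genes Pklr, Aldoa, Ldha and Ldhb, the glycogen genes Ppp1r3b, Pygl and Ugp2, and the gluconeogenic gene Pck1. They were chosen by name, as genes of adult liver isozymes and of the fetal or muscle forms set beside them, at a time when earlier results of these data were known. The 8 genes had 9 probes among 22523 on the array, which carried 13337 named genes, and Aldoa, the gene with more than 1 probe, was read by its probe of highest mean. The word switch holds only in part for them. The liver pyruvate kinase gene Pklr fell in both lesions and the muscle-type aldolase gene Aldoa rose in both, but the probe of Pkm, the other pyruvate kinase gene, lay under a deposited intensity of 300 on every array, and Ldha stayed under a 2-fold difference in every comparison.

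The arrays came from the Resistant-Hepatocyte (R-H) model of rat hepatocarcinogenesis, in which male Fischer rats given diethylnitrosamine are fed 2-acetylaminofluorene and undergo partial hepatectomy (PH). Oval cells (n = 6 arrays), small cells of biliary character that expand in the damaged organ, and preneoplastic foci (n = 5), early clusters of altered hepatocytes, were taken from such rats by laser microdissection 1 week after PH and pooled. Oval cells were recognised by their shape and by immunostaining for GGT, GSTP and CK-19, and early foci by staining for GSTP. The labels give the cell type of the control arrays (n = 2) as hepatocytes, while the study's supplement places their random areas in normal liver and its main methods in treated rats. Cell type and treatment therefore cannot be told apart in a comparison with control, nor can slide and group in a comparison with foci, since foci were on slide 2 and the other arrays on slide 1. More oval cell arrays exist than animals the study names, so an animal stands behind more than 1 array in some cases, which makes p-values too small. Foci pools may share animals as well.

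Each value below is a deposited intensity, the brightness of a probe after the authors' quantile normalization, on a linear scale. Differences are log2 differences ± SE from a limma fit over all 13 arrays, and a probe counts as called at a Benjamini-Hochberg adjusted p under 0.05 with at least a 2-fold difference. If no array of the dimmer group reached 300, the fold is a lower bound, written as at least. A probe lower in a bulk sample can mean fewer cells of a type or less RNA per cell, which cannot be told apart. Levels of different probes are not comparable, so only groups are compared.

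The tissue markers moved as well. Of 10 hepatocyte markers 0 were called in any of the 3 comparisons, and their summed intensity was 284280 to 294142 in control, 237266 to 267720 in oval cells and 225813 to 260734 in foci. The highest intensity of any probe on any array was 43185.5, so these sums come from very bright probes. Whether such probes still follow the amount of hepatocyte RNA was not tested, and the sums do not measure hepatocyte content. All 8 biliary and oval cell markers rose in oval cells, with sums of 3491 to 3725 in control, 29236 to 44357 in oval cells and 5686 to 9434 in foci, and 5 of 8 rose in foci. Matrix and stellate cell genes, 9 of 9 tested, rose in oval cells, with sums of 7693 to 9208 in control, 46341 to 63497 in oval cells and 9365 to 17401 in foci, where 3 rose. The 3 tested globin genes fell in both lesions, with sums for the erythroid list of 26746 to 30202, 3555 to 7691 and 6742 to 8108 in the same order. Of 6 macrophage and Kupffer cell markers 3 fell in foci, while 1 rose and 1 fell in oval cells. Of 3 tested endothelial markers 1 rose in oval cells and 0 in foci, and of 3 tested lymphocyte and neutrophil markers 2 rose in oval cells and 0 in foci. Of 9 muscle genes 8, among them Ckm, Acta1 and Myh4, lay under 300 on every array, and Tagln rose in both lesions. The part of these markers in the results that follow was not tested.

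The adult hepatocyte both burns and makes glucose. It splits fructose 1,6-bisphosphate with aldolase, converts phosphoenolpyruvate to pyruvate with the liver form of pyruvate kinase, and exchanges pyruvate and lactate through lactate dehydrogenase. It stores glucose as glycogen through UDP-glucose, releases it with liver glycogen phosphorylase, and makes it anew through phosphoenolpyruvate carboxykinase and glucose 6-phosphatase. Fetal liver and hepatoma are known for other isozymes of the same steps, such as the muscle forms of aldolase and pyruvate kinase.

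The promoters of 7 members were found in the RefSeq table (build GRCr8, 250 bases before to 50 after each start), with 3 starts for Aldoa. Shown here are those of the member that fell most among the glycolytic genes, of the member that rose in oval cells while other gluconeogenic genes fell, and of the lactate dehydrogenase gene that was not called. They lie at chr2:176841014-176841313 on the plus strand (Pklr), chr3:182348322-182348621 on the plus strand (Pck1) and chr1:106507842-106508141 on the plus strand (Ldha). Capitals mark, in Pklr, the spaced letters of a carbohydrate response element and a TATA box, in Pck1 the letters TTACGTCA of a cyclic AMP response element, and in Ldha an E-box.
Pklr: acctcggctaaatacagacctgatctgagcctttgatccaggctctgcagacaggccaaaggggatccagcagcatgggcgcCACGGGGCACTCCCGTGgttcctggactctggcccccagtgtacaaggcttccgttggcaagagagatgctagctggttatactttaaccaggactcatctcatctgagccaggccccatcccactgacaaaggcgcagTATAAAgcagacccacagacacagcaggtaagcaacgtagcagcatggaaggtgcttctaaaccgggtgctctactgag
Pck1: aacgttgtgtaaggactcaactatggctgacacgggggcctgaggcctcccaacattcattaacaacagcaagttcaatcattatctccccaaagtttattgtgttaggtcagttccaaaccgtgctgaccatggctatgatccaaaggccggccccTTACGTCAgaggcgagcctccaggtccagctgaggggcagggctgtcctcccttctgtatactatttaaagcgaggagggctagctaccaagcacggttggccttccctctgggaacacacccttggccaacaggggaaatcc
Ldha: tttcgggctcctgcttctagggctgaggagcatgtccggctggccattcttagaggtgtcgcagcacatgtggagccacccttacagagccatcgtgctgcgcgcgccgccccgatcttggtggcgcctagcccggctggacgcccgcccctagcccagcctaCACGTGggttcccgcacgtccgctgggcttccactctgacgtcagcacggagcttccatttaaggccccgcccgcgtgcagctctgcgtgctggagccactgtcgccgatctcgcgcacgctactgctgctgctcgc

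Searched on both strands, CACGNNNNNNNNNCGTG stood in 0.182% of 33469 promoters and, among the members, only in that of Pklr, with its first base at -168 from the start. TATAAA stood in 14.2% of promoters and, of the members, also only in that of Pklr (-29). TTACGTCA, found in 0.807% of promoters, stood among the members only in that of Pck1 (-93). CACGTG, found in 6.42%, stood only in that of Ldha (-87). Of the shorter letters, ACGTG (19.3% of promoters), which CACGTG contains, also stood in those of Pygl and of the third start of Aldoa. TGACG (21.2%), which TTACGTCA contains on the other strand, stood in those of Ldha and Pck1. In Ldha it stood at -51 and, on the other strand, at -48, as TGACGTCA, a cyclic AMP response element that was neither marked nor counted. CAAAG (53.8%) stood in those of Pklr, Pck1 and Ugp2. These are matches of letters, not sites shown to be bound.

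In oval cells against control 7 of 8 members were called, 3 higher and 4 lower, where 25.5% of the 6997 tested probes were called, 13.5% higher and 12.0% lower. In foci against control 4 of 8 were called, 2 higher and 2 lower, against 18.1% of all tested probes, 10.3% higher and 7.80% lower. Between oval cells and foci 2 of 8 were called, Ldhb higher and Ugp2 lower in oval cells, against 14.7% of all tested probes, 7.96% higher and 6.73% lower. The median log2 difference of the members was -0.83, 0.26 and -0.47 in these comparisons, beside 0.01, 0.01 and -0.03 over all tested probes. Because the choice of the 8 genes was made with earlier results in view, these counts and medians describe them and are no independent evidence that they stand apart from other probes. All 8 members passed the filter on dim probes. The counts of the other gene lists below are likewise descriptions, to be read beside these same shares of all tested probes.

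**Figure D1:**
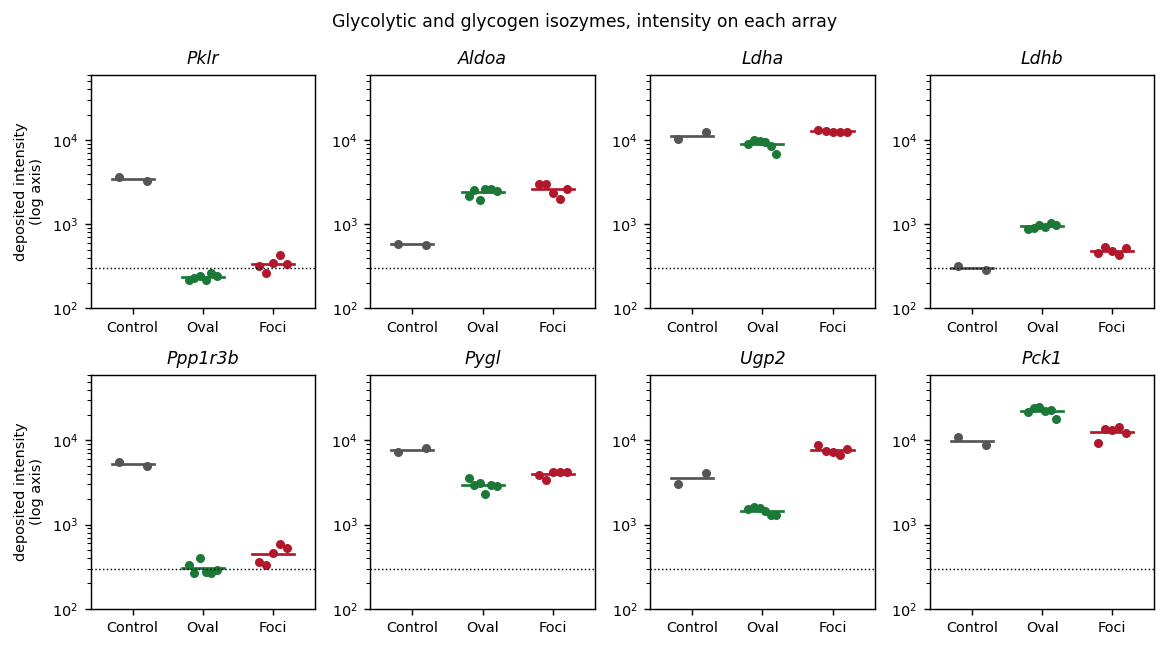
Deposited intensity (vertical, log axis) of the 8 members on each array, by group. Points are arrays, horizontal bars are group means and the dotted line is 300. Pklr and Ppp1r3b lie far below control in both lesions, Aldoa lies above it in both, and Ugp2 lies below control in oval cells and above it in foci.

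Pklr, the liver form of pyruvate kinase that makes the last step of glycolysis, was at 3608 and 3264 in control. In oval cells it ranged from 218 to 267 with a median of 236, and in foci it was at 319, 266, 347, 426 and 338. No array of either lesion reached control, and all oval cell arrays lay under 300, so that the fall in oval cells was at least 11.5-fold (-4.35 ± 0.17, adjusted p = 5.45e-11). In foci it was 12.7-fold (-3.67 ± 0.17, adjusted p = 5.09e-10), with a size that is uncertain because 1 of 5 arrays lay under 300. Oval cells and foci overlapped by 1 foci array, and their difference of -0.68 ± 0.12 (adjusted p = 0.000204) stayed under the 2-fold limit. The probe of Pkm, the gene of the muscle and fetal pyruvate kinase forms, was at 217 and 194 in control, 156 to 197 in oval cells and 146 to 173 in foci. With every array under 300, no fold can be given for Pkm, and 1 probe does not cover all of its transcripts.

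Aldoa, the muscle-type aldolase, was at 590 and 567 in control, 1924 to 2624 (median 2525) in oval cells and 3014, 2998, 2353, 2021 and 2646 in foci. All arrays of both lesions lay above control, and the lesions overlapped each other widely. The rise was 4.55-fold in oval cells (2.19 ± 0.16, adjusted p = 1.94e-08) and 4.94-fold in foci (2.30 ± 0.16, adjusted p = 2.68e-08). Oval cells and foci differed by -0.12 ± 0.12 (adjusted p = 0.375, 95% confidence interval -0.37 to 0.13). The dimmer Aldoa probe gave rises of 1.63 ± 0.16 and 2.01 ± 0.16 on the log2 scale. Between the lesions it gave -0.39 ± 0.12 (adjusted p = 0.00795), under the 2-fold limit, so the 2 probes differ on whether oval cells lay below foci. Aldoc, another form, did not pass the filter on dim probes.

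Ldha, the subunit of lactate dehydrogenase that prevails in muscle and liver, was at 10201 and 12423 in control, 6873 to 10000 (median 9210) in oval cells, and 13233, 12725, 12469, 12469 and 12370 in foci. All 6 oval cell arrays lay under both controls, while foci overlapped them. Its differences were -0.35 ± 0.13 in oval cells (adjusted p = 0.022), 0.17 ± 0.13 in foci (adjusted p = 0.264) and -0.52 ± 0.09 between oval cells and foci (adjusted p = 0.000165), each under the 2-fold limit, which the first passed with arrays centred on ribosomal protein genes (-1.38). Under that centring and with cyclic loess the difference in foci turned (-0.69 and -0.14). Ldhb, the heart-type subunit, was at 319 and 287 in control, 873 to 1045 (median 953) in oval cells, and 456, 537, 476, 433 and 516 in foci. The 3 groups did not overlap, and their order was control, foci, oval cells. It was 3.78-fold higher in oval cells (1.92 ± 0.11, adjusted p = 2.61e-09) and 2.13-fold higher in oval cells than in foci (1.09 ± 0.08, adjusted p = 3.16e-08). In foci its difference of 0.83 ± 0.11 (adjusted p = 2.01e-05) stayed under the 2-fold limit. The sizes of both differences of Ldhb against control are uncertain, since 1 of 2 control arrays lay under 300. Relative to Ldha, Ldhb was thus higher by 2.27 on the log2 scale in oval cells and by 0.66 in foci, a difference of differences with no test. With arrays centred on ribosomal protein genes Ldhb differed by 0.89 in oval cells against control and 0.92 against foci, both under the limit.

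**Figure D2:**
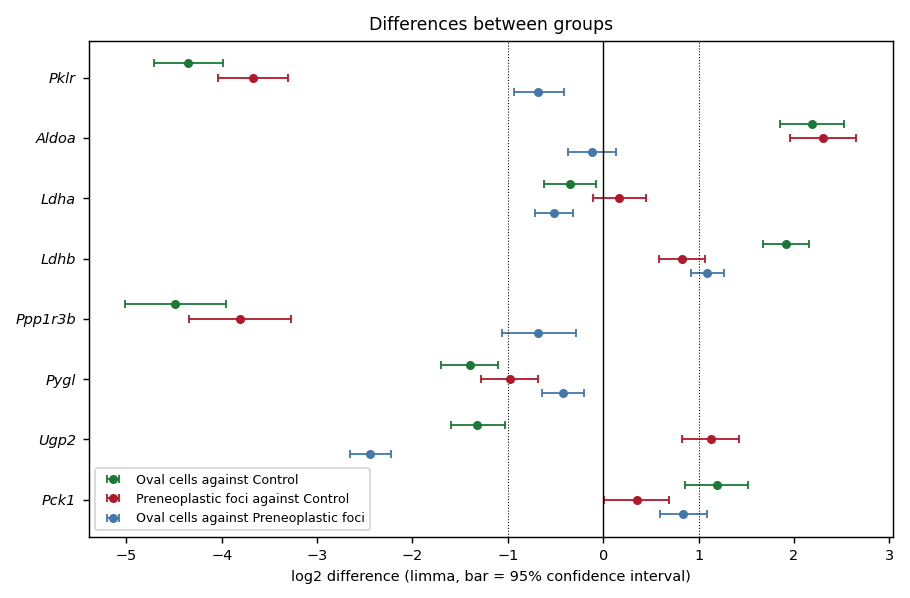
Fitted log2 differences (horizontal) of the members in the 3 comparisons, with bars for the 95% confidence interval and dotted lines at a 2-fold difference. Ugp2 stands at -1.32 in oval cells and 1.13 in foci against control, and Ldhb at 1.92 and 0.83.

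Ppp1r3b, the hepatic subunit that brings protein phosphatase 1 to glycogen and so favours its synthesis, was at 5564 and 4905 in control. It was at 264 to 402 (median 283) in oval cells and at 363, 328, 455, 588 and 522 in foci, with 4 of 6 oval cell arrays and 0 of 5 foci arrays under 300. The fall was 22.4-fold in oval cells (-4.49 ± 0.24, adjusted p = 1.55e-09), of uncertain size for those dim arrays, and 14-fold in foci (-3.81 ± 0.25, adjusted p = 1.57e-08). Between the lesions, whose arrays overlapped, the difference was -0.68 ± 0.18 (adjusted p = 0.00383), under the 2-fold limit. Ppp1r3a, the muscle form of this subunit, did not pass the filter on dim probes.

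Pygl, the liver glycogen phosphorylase, was at 7328 and 8064 in control, 2322 to 3619 (median 2972) in oval cells, and 3908, 3340, 4152, 4178 and 4152 in foci. All lesion arrays lay under both controls. It was 2.64-fold lower in oval cells (-1.40 ± 0.14, adjusted p = 4.81e-07), while in foci the difference of -0.98 ± 0.14 (adjusted p = 3.15e-05) lay just under the 2-fold limit and passed it with cyclic loess (-1.18), without control replicate 1 (-1.05), with centring on ribosomal protein genes (-1.83) and, at 2-fold, without foci replicate 4. Pygb, the brain-type phosphorylase, which is known from fetal tissue and tumours, went the other way. It was at 348 and 315 in control, 848 to 1282 in oval cells and 617 to 840 in foci, with no overlap among the 3 groups. It was 3.79-fold higher in oval cells (1.92 ± 0.17, adjusted p = 1.28e-07) and 2.47-fold higher in foci (1.31 ± 0.17, adjusted p = 1.23e-05), and with arrays centred on ribosomal protein genes these became 0.89 and 0.45, under the limit. Pygm, the muscle form, did not pass the filter. Measured as a difference of the fitted changes, Pygb gained on Pygl by 3.32 in oval cells and by 2.29 in foci, with no test.

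Ugp2, which makes the UDP-glucose that feeds glycogen and other sugar polymers, was the member that moved in opposite directions in the lesions. It was at 3005 and 4093 in control, 1288 to 1617 (median 1483) in oval cells, and 8692, 7567, 7271, 6630 and 7940 in foci. The 3 groups did not overlap, with oval cells lowest and foci highest. It was 2.49-fold lower in oval cells (-1.32 ± 0.13, adjusted p = 6.59e-07), 2.19-fold higher in foci (1.13 ± 0.14, adjusted p = 6.12e-06) and 5.45-fold lower in oval cells than in foci (-2.45 ± 0.10, adjusted p = 2.69e-10). The rise in foci was smaller than 2-fold without control replicate 1 (0.90), with cyclic loess (0.95) and with centring on ribosomal protein genes (0.28, adjusted p = 0.106). That centring moved the median of all tested probes to -0.85, and relative to it Ugp2 was at 1.12. The gap between oval cells and foci was -2.62 to -2.39 under every alternative tried.

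Gys2, the liver glycogen synthase, stood like Ugp2 between the lesions. It was at 1075 and 1235 in control, 319 to 476 in oval cells and 1181 to 1500 in foci. It fell 3.19-fold in oval cells (-1.67 ± 0.15, adjusted p = 1.78e-07) and was 3.76-fold lower there than in foci (-1.91 ± 0.11, adjusted p = 3.05e-09). Foci differed from control by 0.24 ± 0.15 (adjusted p = 0.187), a sign that turned with centring on ribosomal protein genes (-0.62). Gbe1, the branching enzyme, fell 7.45-fold in oval cells (5573 ± 39.0 in control, SD, n = 2, and 818 ± 132, SD, n = 6) and 2.48-fold in foci (2313 ± 353, SD, n = 5), and it was 3-fold lower in oval cells than in foci (adjusted p = 5.64e-08). Of 17 tested glycogen genes, members included, 2 rose and 6 fell in oval cells, with a median log2 difference of -0.42. In foci 2 rose and 2 fell, with a median of -0.13, and 0 were higher and 3 lower in oval cells than in foci, with a median of -0.29. Over all tested probes 13.5% rose and 12.0% fell in oval cells, and 10.3% and 7.80% in foci. Between the lesions 7.96% were higher and 6.73% lower in oval cells. Pgm1 and Pgm2, both named for phosphoglucomutase, were called in opposite directions in oval cells. Whether their products serve the same step was not tested. Pgm2 rose 2.07-fold (1.05 ± 0.09, adjusted p = 8.43e-08), a rise that was not called with centring on ribosomal protein genes (0.02), and Pgm1, named after its values were seen, fell 2.09-fold (-1.06 ± 0.15, adjusted p = 1.84e-05), from 1699 ± 207 (SD, n = 2) to 857 ± 133 (SD, n = 6). The catalytic subunits of protein phosphatase 1, which Ppp1r3b carries to glycogen, stayed within the limit, with Ppp1ca at 0.74 in oval cells and 0.70 in foci, and Ppp1cc at 0.48 and -0.37. Gaa, the lysosomal glucosidase that degrades glycogen, was at -0.42 and 0.45. These sizes are uncertain, since all 6 oval cell arrays, 1 of 5 foci arrays and 1 of 2 control arrays of Gaa lay under 300.

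Pck1, the cytosolic phosphoenolpyruvate carboxykinase that commits carbon to new glucose, was at 10962 and 8730 in control, 18132 to 24568 (median 22615) in oval cells, and 9333, 13796, 13233, 14276 and 12331 in foci. Every oval cell array lay above every other array, and foci overlapped control. The rise in oval cells was 2.28-fold (1.19 ± 0.16, adjusted p = 8.24e-06), and it was under the 2-fold limit with cyclic loess (0.80) and with centring on ribosomal protein genes (0.16, adjusted p = 0.393, and 1.18 relative to the median of all tested probes, -1.02). Foci differed from control by 0.35 ± 0.16 (adjusted p = 0.0674) and oval cells from foci by 0.84 ± 0.12 (adjusted p = 1.31e-05), under the 2-fold limit. Pck2, the mitochondrial form, differed from control by 0.55 ± 0.21 in oval cells (adjusted p = 0.0305) and 0.70 ± 0.22 in foci (adjusted p = 0.0113), neither called, and both signs turned with centring on ribosomal protein genes (-0.48 and -0.16).

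Other steps toward glucose fell where Pck1 rose. In oval cells 6 of 11 tested gluconeogenic genes fell and 1, Pck1, rose, with a median log2 difference of -1.05. Pc, the pyruvate carboxylase that supplies the substrate of Pck1, was 6.18-fold lower, at 668 ± 149 (SD, n = 6) against 3693 ± 602 in control (SD, n = 2). Slc37a4, which carries glucose 6-phosphate into the endoplasmic reticulum, was 5.75-fold lower (7968 ± 654 and 1451 ± 174). Fbp1, the liver fructose bisphosphatase, was at 16449 and 17502 in control and 5089 to 8448 in oval cells, a 2.59-fold fall (-1.37 ± 0.22, adjusted p = 4.62e-05). Gpt and Got2, aminotransferases that link amino acids to this pathway, were 3.15-fold and 2.06-fold lower.

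G6pc1, the catalytic subunit of glucose 6-phosphatase, varied widely among the arrays. It was at 10668 and 7940 in control, 851 to 5785 (median 1966) in oval cells and 2614, 3757, 2211, 1290 and 2391 in foci, with oval cells replicate 4 highest among the lesion arrays. It fell 4.84-fold in oval cells (-2.28 ± 0.54, adjusted p = 0.00154) and 4.07-fold in foci (-2.03 ± 0.55, adjusted p = 0.00495), and the call in foci ended without control replicate 1 (-1.81, adjusted p = 0.057). In foci 3 of 11 gluconeogenic genes fell, namely Pc (2.65-fold), G6pc1 and Slc37a4 (3.69-fold), and 0 rose, with a median of 0.03. Fbp1 differed there by -0.63 ± 0.22 (adjusted p = 0.0211) and Mdh2, a mitochondrial malate dehydrogenase, by 0.63 ± 0.09 (adjusted p = 2.63e-05), both under the limit. Between the lesions 2 of 11 were lower in oval cells, Pc (2.33-fold) and Got2 (2.11-fold), and 0 higher, with a median of -0.64.

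**Figure D3:**
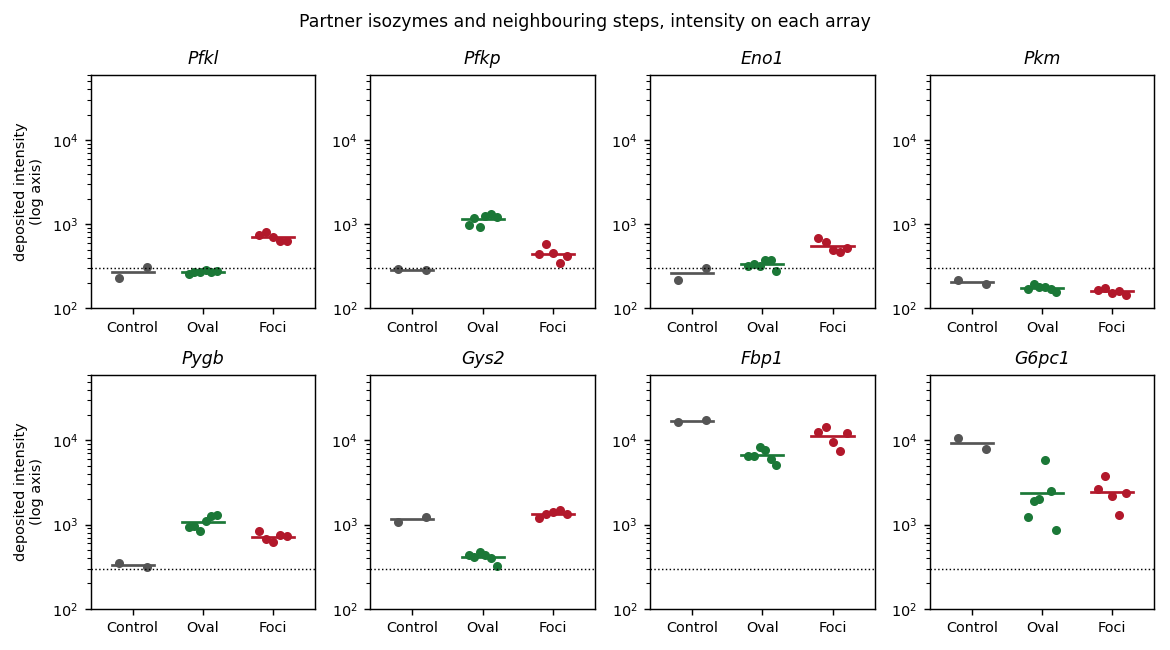
Deposited intensity (vertical, log axis) of 8 partner isozymes and neighbouring steps on each array, by group. Points are arrays, horizontal bars are group means and the dotted line is 300. Pfkl is higher in foci alone and Pfkp highest in oval cells, Pkm lies under 300 throughout, and G6pc1 spreads widely within oval cells.

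The phosphofructokinase genes, whose enzyme commits sugar to glycolysis, differed between the lesions. Pfkl, the liver form, was at 231 and 314 in control, 254 to 283 in oval cells and 637 to 804 in foci, and it was 3.2-fold higher in foci than in control (1.68 ± 0.14, adjusted p = 1.95e-07). Against foci it was at least 2.35-fold lower in oval cells (-1.66 ± 0.10, adjusted p = 5.43e-09). Pfkl passed the filter only through foci, so it could be counted only as higher there. Pfkp, the platelet form, was at 292 and 286 in control, 937 to 1323 in oval cells and 351 to 578 in foci. It was at least 3.84-fold higher in oval cells than in control (2.30 ± 0.18, adjusted p = 4.45e-08) and 2.89-fold higher there than in foci (1.53 ± 0.13, adjusted p = 1.26e-07), while foci differed from control by 0.76 ± 0.18 (adjusted p = 0.00227), under the limit. Pfkm, the muscle form, did not pass the filter. Eno1, the enolase of most tissues, was at 218 and 305 in control, 279 to 378 in oval cells and 463 to 695 in foci, and it was called in foci (1.37 ± 0.20, adjusted p = 3.9e-05) but not in oval cells (0.49 ± 0.20, adjusted p = 0.038). The sizes of both foci rises are uncertain, since 1 of 2 control arrays lay under 300 for each gene, and both were under the limit with arrays centred on ribosomal protein genes (0.82 for Pfkl and 0.51 for Eno1).

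At other steps of glycolysis the differences stayed under the 2-fold limit. Tpi1, triose phosphate isomerase, differed by 0.75 ± 0.08 in oval cells (adjusted p = 9.49e-07) and 0.36 ± 0.08 in foci (adjusted p = 0.00128). Gapdh differed by 0.34 ± 0.11 and 0.14 ± 0.12, Gpi by 0.42 ± 0.10 and 0.15 ± 0.11, and Pgk1 by 0.09 ± 0.10 and 0.17 ± 0.10, none of them called. With arrays centred on ribosomal protein genes these 4 genes lay under control in both lesions (-0.94 to -0.28). Of 12 tested glycolytic genes 3 rose and 1 fell in oval cells, with a median of 0.45, and 3 rose and 1 fell in foci, with a median of 0.27. The genes were Aldoa, Ldhb and Pfkp in oval cells and Aldoa, Pfkl and Eno1 in foci, with Pklr lower in each. Between oval cells and foci 2 were higher, Ldhb and Pfkp, and 1 lower, Pfkl, with a median of 0.07. The shares of all tested probes were 13.5% higher and 12.0% lower in oval cells, and 10.3% and 7.80% in foci.

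**Figure D4:**
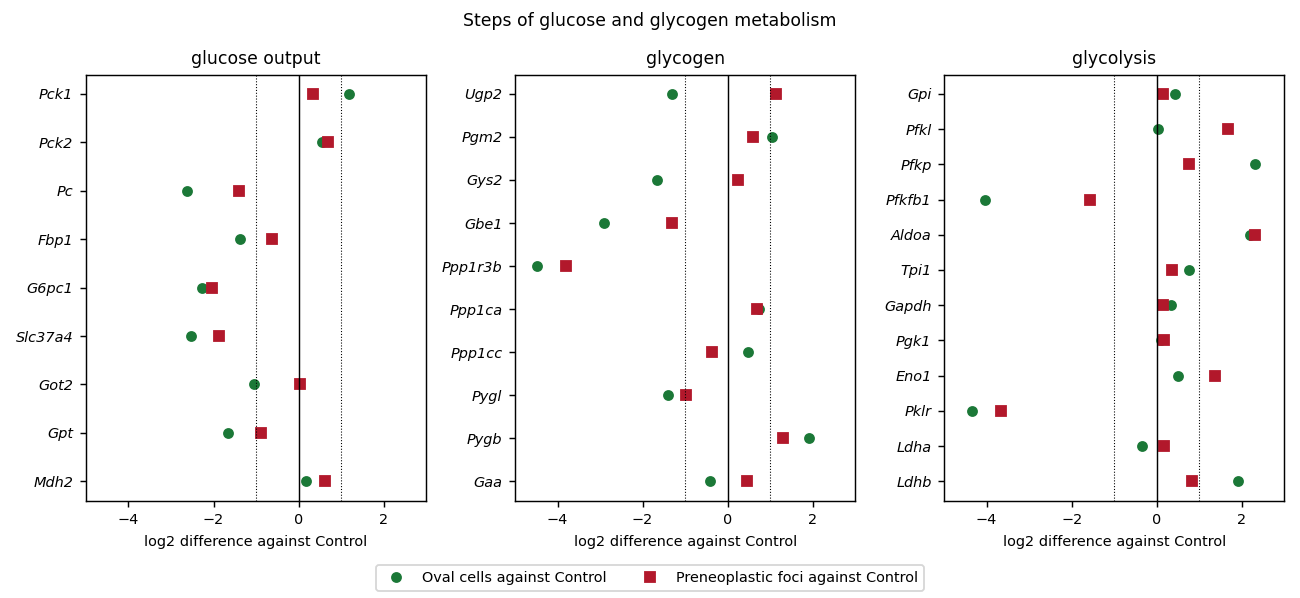
Fitted log2 differences against control (horizontal) for named genes of glucose output, glycogen and glycolysis, with circles for oval cells, squares for foci and dotted lines at a 2-fold difference. Both sets share the same 2 control arrays. Pck1 stands at 1.19 in oval cells beside Pc at -2.63, and Ugp2 and Gys2 lie on different sides in oval cells and foci.

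Of 29 partner isozymes 23 had a probe and 10 passed the filter. Among these 10, 2 rose and 3 fell in oval cells, 3 rose and 1 fell in foci, and 1 was higher and 2 were lower in oval cells than in foci, with medians of 0.34, 0.47 and -0.39. Slc2a5, a fructose transporter, fell 4.08-fold in oval cells and 2.66-fold in foci, with sizes that are uncertain because 5 of 6 oval cell arrays and 1 of 5 foci arrays lay under 300. Slc2a2, the glucose transporter of the hepatocyte, differed from control by 0.19 ± 0.10 in oval cells (adjusted p = 0.12) and -0.09 ± 0.11 in foci (adjusted p = 0.482), and its sign in oval cells turned with cyclic loess (-0.11) and with centring on ribosomal protein genes (-0.84). Hk3, a hexokinase, was at 0.58 ± 0.30 in oval cells (adjusted p = 0.0959) and 0.00 ± 0.31 in foci (adjusted p = 0.991). The muscle, brain or testis forms Aldoc, Ldhc, Fbp2, Eno2, Eno3, Pgam2, Hk2, Slc2a1 and Slc2a3 did not pass the filter on dim probes. Hk1, Gys1, Pgam1, Ppp1r3c, Ppp1r3d and Ppp1r3g were not analysed here.

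Enzymes that set the flow into and out of pyruvate were also read. Pfkfb1, the liver enzyme that makes and removes fructose 2,6-bisphosphate, fell 16.4-fold in oval cells (4551 ± 701 in control, SD, n = 2, and 362 ± 124, SD, n = 6) and 2.94-fold in foci (1596 ± 217, SD, n = 5), and was 5.57-fold lower in oval cells than in foci (adjusted p = 1.52e-07). With 4 of 6 oval cell arrays under 300, the sizes of the folds of Pfkfb1 in oval cells are uncertain, and the ratio of mean deposited intensities was 12.6 against control. Pdk1 and Pdk2, kinases that switch off pyruvate dehydrogenase, fell 3.05-fold and 3.79-fold in oval cells and 2.02-fold and 2.13-fold in foci. Slc16a3, the lactate exporter of glycolytic cells, rose at least 1.49-fold in oval cells (447 ± 19.1 against 190 ± 27.4 in control), not called with centring on ribosomal protein genes (0.65), and in foci it differed by 0.45 ± 0.15 (adjusted p = 0.0154). With every foci and control array of Slc16a3 under 300, no fold can be given for foci. Slc16a3 passed the filter only through oval cells, so it could be counted only as higher there. Dld, a subunit of pyruvate dehydrogenase, was 2.11-fold lower in oval cells than in foci. Of 15 tested genes of this list 1 rose and 6 fell in oval cells (median -0.75), 0 rose and 5 fell in foci (median -0.11), and 2 were higher and 3 lower in oval cells than in foci (median -0.44).

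Among genes of the pentose phosphate path and of fructose and galactose entry, 1 of 9 rose and 3 fell in oval cells (median -0.64), 0 rose and 1 fell in foci (median -0.28), and 1 was higher and 1 lower in oval cells than in foci (median -0.41). Over all tested probes 13.5% rose and 12.0% fell in oval cells, and 10.3% and 7.80% in foci. Khk, which admits fructose to the hepatocyte, fell 4-fold in oval cells and was 3.01-fold lower there than in foci. Akr1b1, an aldose reductase that makes sorbitol, rose 4-fold in oval cells (1087 ± 84.9 in control and 4149 ± 445), just under the limit with centring on ribosomal protein genes (0.97), and its difference of 0.97 ± 0.11 in foci (adjusted p = 2.42e-06) lay just under the limit. Taldo1, the transaldolase, differed by 0.78 and 0.79 in oval cells and foci, Rpia by 0.85 and 0.20, and H6pd by -0.86 and -0.35, none called. Every lesion array of H6pd lay under 300, so its sizes are uncertain.

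Of 15 tested transcription factors and receptors that act on these genes 1 rose and 7 fell in oval cells (median -0.69), 1 rose and 4 fell in foci (median -0.42), and 0 were higher and 4 lower in oval cells than in foci (median -0.20). Srebf1, which drives lipogenic and glycolytic genes under insulin, fell 10.6-fold in oval cells (6439 ± 831 in control and 701 ± 205) and 5.4-fold in foci. Cebpa, a factor of the mature hepatocyte, fell 5.27-fold and 2.09-fold, and was 2.52-fold lower in oval cells than in foci. The folds of Cebpa in oval cells are of uncertain size, with 5 of 6 arrays under 300, and the ratio of mean deposited intensities was 3.99 against control. Foxa3 fell 2.41-fold in oval cells and differed by 0.04 ± 0.17 in foci (adjusted p = 0.852). Nr0b2, a repressor of bile acid and glucose genes, fell at least 1.27-fold in both. It passed the filter only through control, so it could be counted only as lower in the lesions. Myc, known to raise Ldha and other glycolytic genes, rose at least 4.31-fold in oval cells and at least 3.29-fold in foci. Any link of Myc here to Ldha, which was not called in either, was not tested. Mlxipl, whose product binds the carbohydrate response element, was not analysed here, and Hnf4a did not pass the filter.

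**Figure D5:**
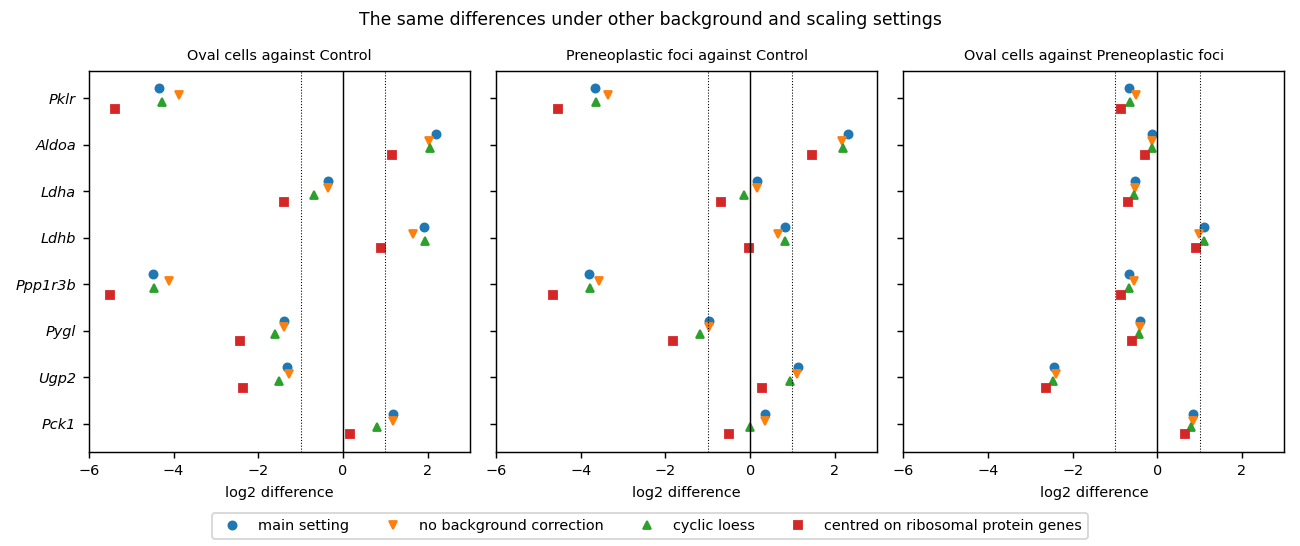
Log2 differences of the members (horizontal) in the 3 comparisons under the main setting and under 3 other settings of background and scaling, with dotted lines at a 2-fold difference. Centring on ribosomal protein genes moves every point to the left. There it takes rises of Ldhb, Pck1 and Ugp2 under the limit and falls of Ldha in oval cells and Pygl in foci past it, and it leaves Pklr, Ppp1r3b and Aldoa beyond it against control.

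By pattern over the 13 arrays, the probes closest to Pklr were those of Cpq (Pearson r = 0.99), Ppp1r3b (0.988) and Gphn (0.987), so the pair that fell most were near neighbours. Nearest to Ugp2 were Sec22b (0.992), Mcts1 (0.99) and Acsl4 (0.989), and to Ldhb Adgrg1 (0.992), Fxyd6 (0.991) and Gnai2 (0.99). For Aldoa they were Card19 (0.99), Ola1 (0.989) and Nhp2 (0.989), and for Ppp1r3b Mettl7a (0.991), Serpina4 (0.99) and Fabp7 (0.988). Pygl stood nearest to Ust5r (0.987), Igfals (0.987) and Agmo (0.986), Pck1 to Abhd4 (0.981), Sulf2 (0.97) and Rab13 (0.961), and Ldha to Coa8 (0.959), Ubfd1 (0.938) and Dhrs4 (0.937). These correlations describe 13 points that fall into 3 groups, and many probes that separate the groups share them.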

How the data were processed

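RNA of microdissected rat liver was hybridised to Illumina RatRef-12 arrays, 1 per sample. The deposited probe intensity, on a linear scale, had been quantile-normalized by the authors. The submitters' processing notes name BeadStudio 3.0.19.0. Since quantiles equalise the arrays, changes of total RNA or of most genes at once are hidden. Another table was not used, because the names of its 26 per-sample columns fit no label.

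In limma 3.58.1 (R 4.3.3), normexp with an offset of 50 was followed by quantile normalization and log2. Because detection p-values could not be tied to samples, the filter kept the 6997 of 22523 probes with a median deposited intensity over 300 in at least 1 group. A probe kept through 1 group alone could in practice be called only as higher in that group. The 3 comparisons came from a single fit to the 13 arrays, with p-values adjusted by Benjamini-Hochberg over all tested probes. The share of probes over 300 was 26.8% on every array, and precision is limited by the number of arrays. The fit was tested on simulated data.

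Groups came from the labels. Of the probes, 13793 had 1 gene symbol and 8730 are unnamed here, and 13752 of the named ones matched a RefSeq gene. The 8 members and all lists were chosen with earlier results of these data known. The text names all members, partner isozymes with a probe past the filter, up to 5 further genes of each list by smallest adjusted p, and the 3 probes most like each member. The glucose 6-phosphatase gene G6pc1 and genes that were dim or not analysed are named beside them, as are marker genes. A few listed genes and a motif are not reported here. CACGNNNNNNNNNCGTG and TTACGTCA were added to the motif list after the promoters were read. Alternatives were other background corrections, scalings (cyclic loess, centring on 58 ribosomal protein probes), array weights, other filters and each array left out. Further alternatives were Student's t-test, which the study names in its general statistics, no fold limit and a fit to the compared groups alone.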

Additional observations from a re-analysis of the deposited data

Results flagged for a closer look

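The change of Ldhb against control was larger in oval cells than in foci by 1.09 on the log2 scale (± 0.08, SE, adjusted p = 3.16e-08 in limma), with 6 of 6 oval cell arrays above every foci array. The change of Ugp2 differed between the lesions by -2.45 (± 0.10, SE, adjusted p = 2.69e-10), with oval cells under and foci over control. Slc2a2 in oval cells replicate 4 was at 13.29 on the normalized log2 scale (a deposited intensity of 10107), where the other 5 oval cell arrays were at 12.93 to 13.05. It was the 1 far value among 38 groups of arrays examined, and chance gives such a value in about 1 of 20 groups.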

How the results depend on the processing

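Among the members, the falls of Pklr, Ppp1r3b, Pygl and Ugp2 and the rise of Aldoa in oval cells, the falls of Pklr and Ppp1r3b and the rise of Aldoa in foci, and the gap of Ugp2 between the lesions kept direction and call under every alternative that could test them. The methods' filter dropped Pklr, Aldoa and Ldha by construction, and the filter on the median over all arrays dropped Pklr. Members called in foci were then 2 with the methods' filter. Members called between oval cells and foci were 1 without background correction, where Ldhb was at 0.98, 1 with centring on ribosomal protein genes, and 7 with no fold limit. All probes called in oval cells, in foci and between them were 4958, 4532 and 4902 with no fold limit, and with the methods' filter 941 in oval cells and 633 in foci. Centring on ribosomal protein genes called 3814 and 3065, of which 6.9% and 5.25% were higher in place of 52.9% and 56.9%, and between the lesions 35.3% in place of 54.2%. It moved the median of all tested probes to -1.02, -0.85 and -0.20. Against control in oval cells that centring turned Pck2 (-0.48), Hk3 (-0.45), Pfkl (-1.01), Eno1 (-0.54) and Slc2a2 (-0.84), and in foci Ldha (-0.69), Ldhb (-0.03), Pck1 (-0.50), Pck2 (-0.16), Gys2 (-0.62), Hk3 (-0.85) and Pfkp (-0.09), none of which had been called in that comparison. Cyclic loess turned Slc2a2 in oval cells (-0.11) and Ldha (-0.14) and Pck1 (0.00) in foci, and an offset of 16 turned Hk3 in foci (0.00). With each array left out, members called were 7 in oval cells, 4 to 5 in foci and 2 between them. Differences whose sign turned on leaving out an array ranged from -0.28 to 0.32 (Pfkl in oval cells), -0.16 to 0.13 (Hk3 in foci), -0.26 to 0.03 (Pck2 between lesions) and -0.57 to 0.00 (G6pc1 between lesions). The cause of these changes was not tested. No paired analysis was possible because the labels name the group and the slide and pair no arrays. Replicate numbers here count the arrays of a group in sample order. Probes near 300 are close to background, which limits the folds of Pklr, Ldhb, Ppp1r3b, Pfkfb1, Cebpa, Slc2a5, Pfkl and Eno1, among others.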
